A study of Mus musculus with 8 samples.

Results

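The 8 genes described here encode enzymes of heme synthesis: Alas1 and Alas2, the ALA synthases that open the pathway, followed by Alad, Uros, Urod, Cpox, Ppox and Fech. They were taken by symbol from a table of raw read counts for 33435 named genes, and all 8 were found and passed the filter on low counts. The libraries were made from mouse hematopoietic stem and progenitor cells (HSPCs) of C57BL/6J fetal livers at stage E14.5. The cells of 4 libraries were infected with a GFP control virus, which the series' design calls an empty vector, and those of the other 4 with a virus carrying Trim27. Myeloid progenitors were sorted from the infected cells before polyadenylated RNA was extracted. Both groups therefore share strain, age, infection and sort, and they differ in what the virus carried. The sources used here do not give the vector promoter, the number of livers behind a library or whether libraries within a group stem from separate animals or cultures. The p-values therefore speak only of how much these libraries vary, and that variation may be technical.

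Heme is made in a fixed order of steps that begins and ends in mitochondria and passes through the cytosol between. ALA synthase condenses glycine with succinyl-CoA and sets the rate. Alas1 is the housekeeping form, held back by heme itself, while Alas2 is the erythroid form, switched on by GATA1 and translated according to iron supply through an iron responsive element in the leader of its mRNA. Alad, Uros and Urod act in the cytosol, Cpox and Ppox oxidise the porphyrinogens at the mitochondrion, and Fech inserts iron. Erythroid precursors need large amounts of heme for hemoglobin, and granulocyte precursors need it for enzymes such as myeloperoxidase.

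The 3 stretches of sequence below are shown because they carry what sets Alas2 apart from the other members, or hold the letters searched for the erythroid factor GATA1. The first is the iron responsive element loop of Alas2, from the GENCODE transcript (GRCm38), with the loop letters in capitals. The loop begins at base 96 of a leader of 126 bases, 31 bases before the start codon.

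Alas2 iron responsive element: ttggttcgtcctCAGTGCagggcaacagga

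The others are the bases before the annotated starts of Alas2 and Cpox, from RefSeq (GRCm38.p6, plus strand), with matches on either strand to the GATA motif AGATAA, to its form ending in G (AGATAG) or to the same pair with T as the first letter (TGATAA and TGATAG) in capitals. For Alas2 the stretch is chrX:150547167-150547374, which stops 42 bases short of the start because GENCODE annotates exons there, and for Cpox it is chr16:58669958-58670207.

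Alas2 promoter: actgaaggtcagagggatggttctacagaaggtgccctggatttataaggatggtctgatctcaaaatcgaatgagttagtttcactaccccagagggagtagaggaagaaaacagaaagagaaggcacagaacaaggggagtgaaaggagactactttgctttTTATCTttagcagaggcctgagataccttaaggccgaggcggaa

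Cpox promoter: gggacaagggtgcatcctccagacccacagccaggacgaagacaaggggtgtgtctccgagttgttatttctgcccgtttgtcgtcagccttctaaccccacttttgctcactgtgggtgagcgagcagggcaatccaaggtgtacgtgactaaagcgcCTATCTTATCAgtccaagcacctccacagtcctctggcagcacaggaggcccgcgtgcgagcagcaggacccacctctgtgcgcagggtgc

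Alas2 held 1 match, beginning 86 bases before the start. Cpox held 2 matches that share a base, beginning 91 and 86 bases before the start. Of all 32851 windows of 250 bases before a start, 26.5% held at least 1 match. The table held 10 windows for 7 of the members and no entry for Fech. Among these windows the only other with a match was that of the second start of Uros, which held 2. A match of these letters describes the window and does not show a bound site.

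Each GFP library held between 9257889 and 10747794 counts, and each Trim27 library between 10551137 and 16366571. Trim27 itself rose from 180.5 ± 8.52 to 292.7 ± 18.4 CPM (SD, n = 4 each). CPM are counts scaled to a common library size with TMM, a factor that lines up the bulk of genes between libraries. A gene was called at an adjusted p under 0.05 by edgeR's quasi-likelihood test over 11040 genes, and 85.5% of them were called (47.5% higher and 38% lower in the Trim27 group). The libraries of the groups did not overlap for 80.7% of genes. Over all tested genes the median log2 fold change was 0.14. It was 0.44 with library size as the only scaling, 0.36 after removal of the length trend of abundant genes and -0.07 after removal of that of all genes. A length trend is the smooth dependence of a library's counts on transcript length.

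With the Trim27 virus, the erythroid ALA synthase Alas2 was about 4-fold higher, the transcripts of Alad, Uros, Urod and Cpox were 2.16-fold to 3.74-fold lower, that of Ppox was 1.2-fold lower, and those of Alas1 and Fech were within 1.1-fold of the control. Of the 8 members, 2 rose (Alas2 and Fech), 5 fell (Alad, Uros, Urod, Cpox and Ppox) and 1, Alas1, did not pass. That is 7 called of 8, near the 85.5% of all genes, so the number of calls does not set these genes apart. The rise of Fech was small and was lost when any library was left out. Alas2, Alad, Uros, Urod and Cpox, 5 of the 8, were called and changed at least 2-fold, beside 47.3% of all tested genes. The median log2 fold change of the members was -0.69, beside 0.14 for all tested genes. Among the genes within the members' range of abundance, 85.1% of 5162 were called.

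**Figure D1:**
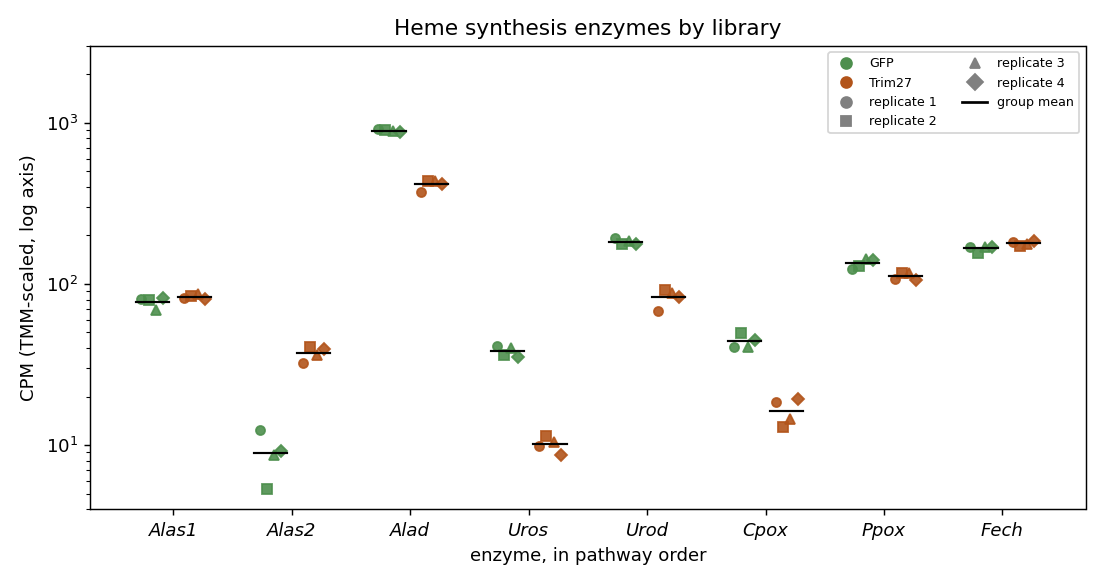
CPM on a log axis for the 8 members in pathway order, with each of the 4 GFP and 4 Trim27 libraries as a point and the group mean as a bar. Alas2 is higher in every Trim27 library, Alad, Uros, Urod and Cpox are lower in every Trim27 library by a wide gap, and the groups of Alas1 overlap.

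The first step showed a contrast between the paired synthases. Alas1 was at 80.2, 79.1, 69.1 and 82.0 CPM in GFP replicates 1 to 4 and at 81.8, 84.7, 86.6 and 80.4 CPM in Trim27 replicates 1 to 4. The groups overlapped, and GFP replicate 3 lay below all other libraries. Its log2 fold change was 0.10 (SE 0.06, adjusted p = 0.14). This small value turned with the scaling: library size alone gave 0.41 (adjusted p = 1.39e-06), while removing the length trend of all genes gave -0.38 (adjusted p = 5.86e-06).

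Alas2 was at 12.45, 5.32, 8.73 and 9.15 CPM in the GFP libraries, from 109, 50, 73 and 89 counts. In the Trim27 libraries it was at 32.55, 40.4, 36.5 and 39.2 CPM, from 541, 671, 661 and 462 counts. Every Trim27 library was above every GFP library, and the lowest value was that of GFP replicate 2. The log2 fold change was 2.06 (SE 0.15, adjusted p = 5.1e-12), or 4.18-fold. It kept its direction and its call in all 20 alternative settings, from 1.84 with the length trend removed to 2.37 with library size alone, and it was 1.87 without GFP replicate 2. Alas2 was also the most variable member in the control group, where its coefficient of variation was 32.7%, against 9.37% in the Trim27 group.

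The ratio of Alas2 to Alas1 counts within a library does not depend on any factor that scales a whole library. A length offset differs between genes, and the ratio was not recomputed with one. Alas2 counts came to 15.5%, 6.73%, 12.6% and 11.2% of Alas1 counts in the GFP libraries and to 39.8%, 47.7%, 42.2% and 48.8% in the Trim27 libraries. The groups did not overlap. On the log2 scale the ratio was -3.18 ± 0.51 for GFP and -1.17 ± 0.14 for Trim27 (SD over 4 libraries each), a difference of 2.01 (exact permutation test, 2-sided, p = 0.0286, the smallest that 70 splits of 8 libraries allow).

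The Alas2 value carries an uncertainty of annotation. In GENCODE (GRCm38), 311 bases of the Alas2 exons, 15.3% of their 2037 bases, lie in exons of Apex2, a DNA repair nuclease gene on the opposite strand, and 61 bases lie opposite the microRNA gene Mir3620. The sources used here do not say whether the authors' counting used strand, and without strand the reads of overlapping genes cannot be told apart. Apex2 was at 12.45, 9.68, 8.25 and 13.06 CPM in the GFP libraries and at 22.7, 28.9, 28.4 and 27.7 CPM in the Trim27 libraries, without overlap. It rose too (log2 fold change 1.30, SE 0.13, adjusted p = 3.0e-10). Within the GFP group replicates 1 and 4 held the higher values of both genes and replicates 2 and 3 the lower ones. Alas2 counts were 0.827 ± 0.242 times those of Apex2 for GFP and 1.38 ± 0.0674 times for Trim27 (SD, n = 4 each). How much of the Alas2 value came from Apex2 reads was not tested. Alas1 also overlaps another gene, since 11.7% of its exon bases lie opposite the cDNA clone 4930500F10Rik, and the other 6 members overlap no annotated exon of another gene.

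**Figure D2:**
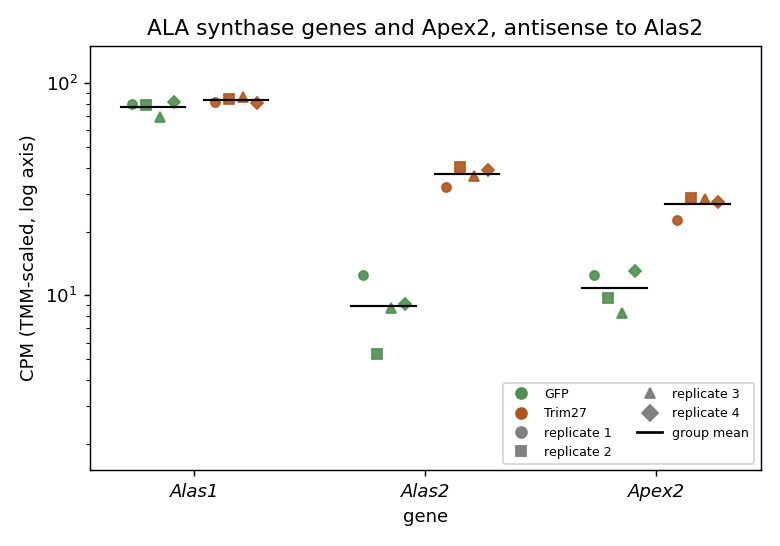
CPM on a log axis of Alas1, Alas2 and Apex2 in the 4 GFP and 4 Trim27 libraries, with group means as bars. Alas1 stays near 80 CPM in both groups, while Alas2 and the antisense gene Apex2 are both higher in every Trim27 library.

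The members that act in the cytosol fell. Alad, ALA dehydratase, which joins ALA molecules into porphobilinogen, was at 913.1, 899.9, 887.2 and 883.2 CPM in the GFP libraries and at 372.6, 434.9, 435.4 and 417.2 CPM in the Trim27 libraries. The GFP libraries were tightly grouped, and no Trim27 library exceeded 435.4 CPM. The log2 fold change of Alad was -1.11 (SE 0.05, adjusted p = 2.3e-18), 2.16-fold lower.

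Uros, uroporphyrinogen III synthase, which closes the porphyrin ring, was at 41.1, 36.2, 40.1 and 35.2 CPM in the GFP libraries and at 9.87, 11.4, 10.4 and 8.74 CPM in the Trim27 libraries. No Trim27 library came near the GFP range, and the log2 fold change was -1.90 (SE 0.11, adjusted p = 9.1e-16), or 3.74-fold lower. Urod, uroporphyrinogen decarboxylase, was at 192.4, 177.9, 185.7 and 176.3 CPM in the GFP libraries and at 67.6, 91.6, 88.1 and 82.9 CPM in the Trim27 libraries. Trim27 replicate 1 was the lowest of its group, as it was for Alad. The log2 fold change of Urod was -1.15 (SE 0.07, adjusted p = 3.1e-14), 2.22-fold lower.

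The mitochondrial steps that finish heme differed among themselves. Cpox, coproporphyrinogen oxidase, was at 40.9, 49.4, 40.65 and 44.9 CPM in the GFP libraries and at 18.4, 12.9, 14.52 and 19.35 CPM in the Trim27 libraries. The groups were far apart, although Cpox had the largest relative spread of the members in the Trim27 group, with a coefficient of variation of 19.0%. Its log2 fold change was -1.44 (SE 0.11, adjusted p = 1.2e-12), 2.72-fold lower. Ppox, protoporphyrinogen oxidase, was at 124.4, 128.5, 143.2 and 140.8 CPM in the GFP libraries and at 107.7, 117.3, 116.2 and 105.3 CPM in the Trim27 libraries. The groups did not overlap but lay close, with a log2 fold change of -0.26 (SE 0.06, adjusted p = 1.7e-04). With library size alone it was 0.04 (adjusted p = 0.546) for Ppox, so this fall rests on the scaling.

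Fech, ferrochelatase, which places iron in protoporphyrin, was at 169.7, 156.2, 169.7 and 168.8 CPM in the GFP libraries and at 182.3, 172.0, 177.7 and 184.9 CPM in the Trim27 libraries. The Trim27 values were all higher, by a small margin: the log2 fold change was 0.11 (SE 0.05, adjusted p = 0.049). The call was lost without any 1 of the 8 libraries (0.07 to 0.12, adjusted p from 0.0584 to 0.282). Removing the length trend turned the direction, to -0.71 (adjusted p = 1.25e-13). Fech has the longest transcript of the members, 6571 bases, against 1247 to 3399 for the others.

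**Figure D3:**
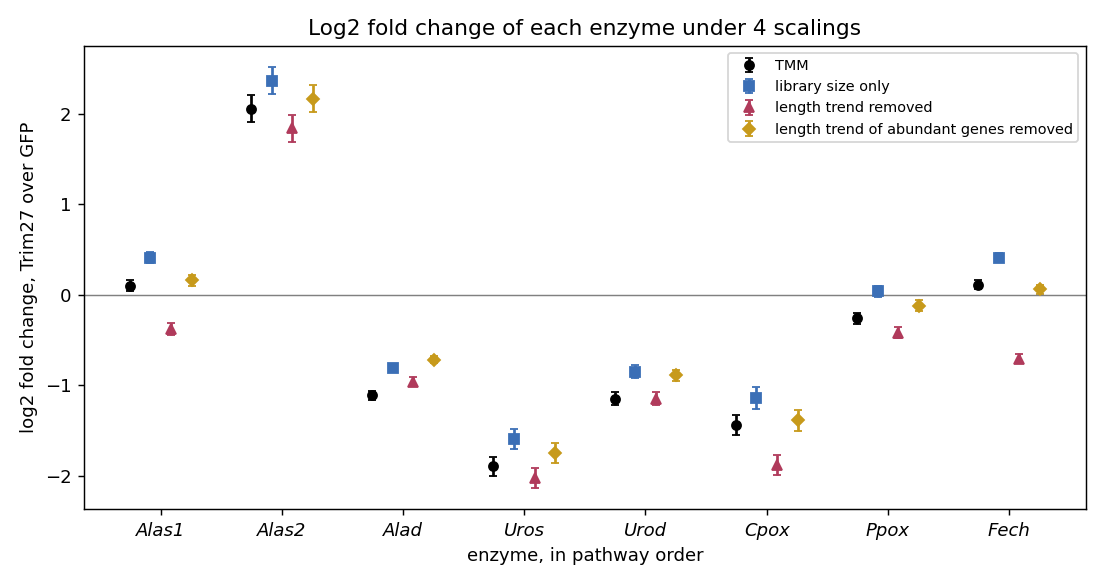
Log2 fold change (Trim27 over GFP, points, with the SE as bars) of the 8 members under 4 scalings: TMM, library size only, and TMM with the length trend of all genes or of abundant genes removed. Alas2 stays between 1.84 and 2.37 and the falls of Alad, Uros, Urod and Cpox stay below -0.7, while Alas1, Ppox and Fech change sign with the scaling.

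Levels can be compared between enzymes only per length, here as CPM per kilobase of the longest coding transcript in GENCODE. In the GFP group Alad was highest at 718 ± 10.9 CPM per kilobase, followed by Urod at 123 ± 4.99 and Ppox at 73.7 ± 5.04. Fech (25.3 ± 1.0), Alas1 (22.8 ± 1.70) and Uros (21.6 ± 1.65) formed a run whose neighbours overlapped, and Cpox (14.2 ± 1.33) and Alas2 (4.38 ± 1.43) were lowest. In the Trim27 group Alad was again highest (333 ± 23.7 CPM per kilobase), and Ppox (61.3 ± 3.29) and Urod (55.5 ± 7.11) overlapped. Alas2, at 18.2 ± 1.71, was no longer the lowest: Uros (5.74 ± 0.639) and Cpox (5.26 ± 0.997) were below it and overlapped each other. Uros and Cpox, high enough in the control to sit with or just under Alas1, thus stood below both synthases.

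**Figure D4:**
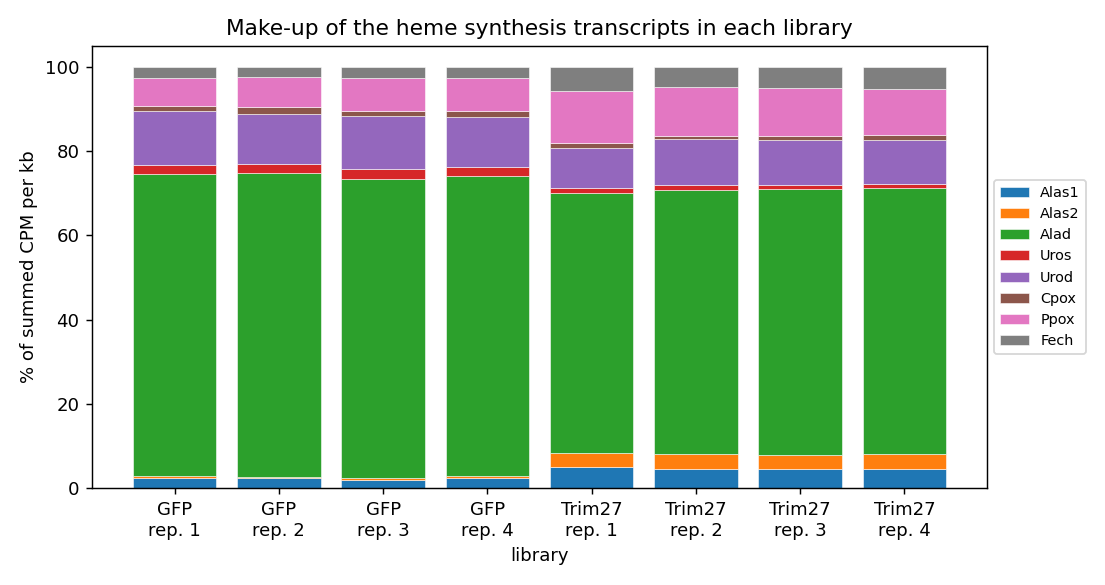
Share of the summed CPM per kilobase of the 8 members taken by each of them, as stacked bars, 1 for each library. Alad takes 71.6% ± 0.541 for GFP and 62.7% ± 0.565 for Trim27, and Alas2 is visible as a band in the Trim27 libraries (SD, n = 4 each).

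The make-up of the summed transcripts of the 8 members does not depend on any factor that scales a whole library. It would change with a length offset, which differs between genes, and the shares were not recomputed with one. With the length trend of all genes removed, the log2 fold change was -0.71 for Fech and -0.96 for Alad, against 0.11 and -1.11 with TMM. Within a group the share of Alad varied little, while that of Alas2 ran from 0.262% to 0.598% among GFP libraries and that of Cpox from 0.748% to 1.232% among Trim27 libraries. The share of Alad was lower with Trim27, that of Alas2 went from 0.435% ± 0.138 for GFP to 3.44% ± 0.19 for Trim27, and that of Uros from 2.16% ± 0.142 to 1.08% ± 0.108. Neither pair of groups overlapped. The shares of Ppox (7.35% ± 0.568 and 11.6% ± 0.551), Fech (2.52% ± 0.0951 and 5.16% ± 0.464) and Alas1 (2.27% ± 0.171 and 4.63% ± 0.245) were higher in the Trim27 group, where the sum itself was smaller.

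Of 9 tested genes that feed the pathway with glycine and succinyl-CoA, 6 rose and 1 fell, with a median of 0.69 on the log2 scale. Beside this list and each list below, 47.5% of all tested genes rose and 38% fell. Removing the length trend gave 5 rises and 3 falls. The serine hydroxymethyltransferases that make glycine rose, Shmt1 by 1.47 (SE 0.06) and mitochondrial Shmt2 by 0.78 (SE 0.05), as did Sucla2, a subunit of succinyl-CoA synthetase, by 1.59 (SE 0.07). Shmt1 shares exonic bases with Smcr8 and Shmt2 with Ndufa4l2. Gcat, which releases glycine in threonine breakdown, fell (-0.92, SE 0.05), and it shares exonic bases with Galr3.

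Transporters of glycine, iron, porphyrins and heme went both ways, with 6 of 15 tested up, 8 down and a median of -0.15 (0.15 with library size alone). Abcg2, an exporter that handles porphyrins, rose from 28.5 ± 2.45 to 118.9 ± 3.09 CPM (log2 fold change 2.06, SE 0.07). Slc48a1, which moves heme out of lysosomes, fell from 646.6 ± 6.62 to 334 ± 7.02 CPM (-0.95), Tspo, an outer mitochondrial membrane protein that binds porphyrins, fell by 0.92 on the log2 scale, and Slc25a28 fell from 51.1 ± 2.41 to 15.2 ± 1.57 CPM (-1.75, SE 0.09). Slc25a28 encodes the mitochondrial iron importer mitoferrin 2. Its erythroid counterpart Slc25a37 (mitoferrin 1), named here after its values were seen, moved the other way, from 14.6 ± 1.72 to 38.5 ± 1.99 CPM (1.40, SE 0.10). Slc25a37 shares exonic bases with 2 predicted genes on the opposite strand, and Slc48a1 shares them with Hdac7, also on the opposite strand.

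The product of the iron-sulfur cluster assembly genes is carried by Fech and the iron sensor Aco1. These genes fell in 11 of 15 cases and rose in 3, with a median of -0.71. Among all tested genes 38% fell and 47.5% rose, so falls among the few genes of a list are common. Removing the length trend of abundant genes left 8 falls and 4 rises. Glrx5, a glutaredoxin of the mitochondrial assembly line, fell from 267.6 ± 7.81 to 127.8 ± 3.84 CPM (-1.07, SE 0.05), the ferredoxin Fdx1 by 1.78 and Iba57 by 1.14 on the log2 scale. Heme degradation genes fell in all 3 tested cases: biliverdin reductase b (Blvrb) from 1473 ± 55.9 to 632.5 ± 62.3 CPM (-1.22), Blvra (-1.05) and the constitutive heme oxygenase Hmox2 (-0.72), which overlaps Cdip1. The inducible heme oxygenase Hmox1 had no count in any of the 8 libraries. Of the 3 genes that build heme a or attach heme to cytochrome c, Cox10 fell (-1.07), while Cox15 (1.43) and Hccs (0.46) rose. Removal of the length trend left Hccs at 0.13 (adjusted p = 0.375). Cox10 and Cox15 each overlap other genes.

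Regulators of ALA synthase and of heme sensing split evenly, with 6 of 13 tested up and 6 down, or 7 up and 3 down with library size alone. Nrf1, a factor that drives Alas1 and mitochondrial genes, rose from 45.2 ± 3.01 to 87.8 ± 4.66 CPM (0.96, SE 0.07). Nr1d1, a heme-binding repressor of Alas1's activator, fell from 19.97 ± 2.13 to 1.004 ± 0.266 CPM (-4.27). That activator, Ppargc1a, held 2 counts over the GFP libraries and 0 over the Trim27 libraries, and was not tested. The small Maf partners of Bach1 and NF-E2 rose, Mafk from 1.23 ± 0.603 to 48.15 ± 3.77 CPM (5.30) and Mafg by 1.13. Nr1d1 overlaps Thra and Mafk overlaps Tmem184a. The pair of proteins that bind the iron responsive element printed above was also looked up after values were seen. Aco1 (IRP1) rose from 14.97 ± 1.85 to 29.45 ± 4.16 CPM (0.97, SE 0.12) and Ireb2 (IRP2) fell from 18.5 ± 2.18 to 10.1 ± 1.98 CPM (-0.87, SE 0.15).

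**Figure D5:**
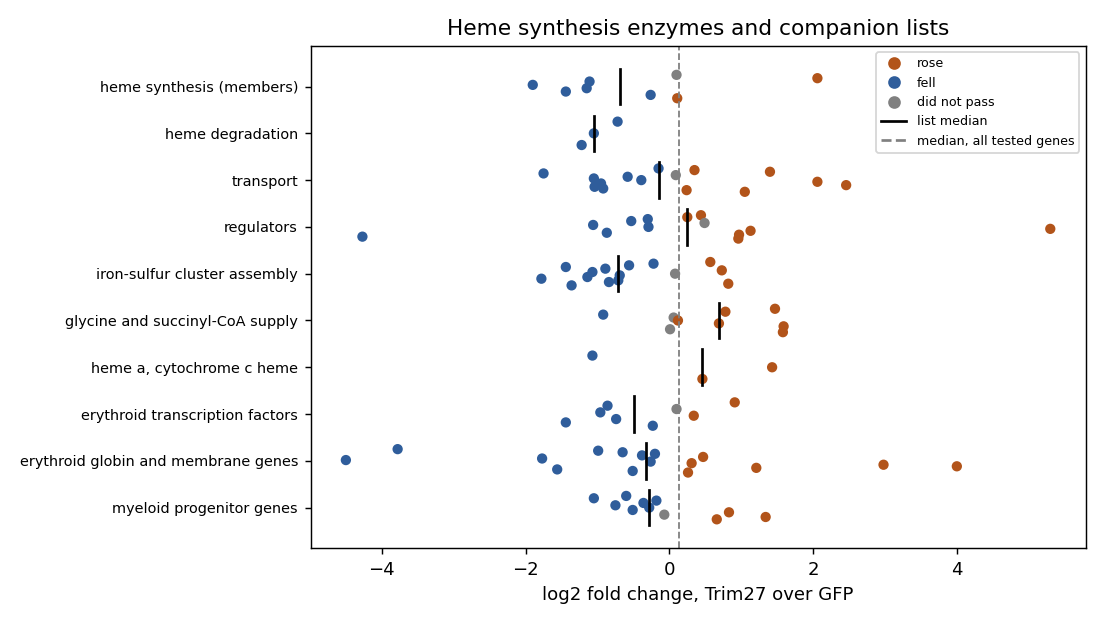
Log2 fold change (Trim27 over GFP) of every tested gene of the members and 9 companion lists, coloured by whether it rose, fell or did not pass. The list median is a black line, and the dashed line is the median of all tested genes, 0.14; the members' median is -0.69 and that of the glycine and succinyl-CoA list is 0.69.

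The erythroid genes that usually accompany heme synthesis moved both ways beside the members. Of 8 erythroid factors, 2 rose, 5 fell and 1 did not pass (median -0.49): Gata1, the factor whose letters were searched above, rose by 0.91, while Klf1 fell by 0.86, Ldb1 by 1.44 and Lmo2 by 0.74 on the log2 scale. Of 16 tested globin and red cell membrane or enzyme genes 6 rose and 10 fell (median -0.32). Removal of the length trend of abundant genes gave 7 rises and 6 falls. In the main fit 47.5% of all tested genes rose and 38% fell. Falls were seen for Hbb-bh1, an embryonic globin (-3.78), and for Epb4.2, which encodes a protein of the red cell membrane (-4.50). Of the 20 genes on this list, 17 were found by symbol. Hbb-b1, Hbb-b2 and Ahsp were not found, so the counts and the sum leave out these adult beta globins. The summed CPM of the genes found ran from 1487 to 1507 among GFP libraries and from 1374 to 1422 among Trim27 libraries. In bulk libraries, fewer cells of a type and less RNA per cell cannot be told apart, and the part of erythroid cells in the values of the members was not tested.

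Of 12 myeloid progenitor genes 11 had enough counts to be tested, among them Mpo, Elane, Prtn3 and Ctsg, and Flt3 had no count in any library. All 8 erythroid factors and 9 of 10 B cell markers passed the same filter, so passing it does not single out the myeloid label. Of the 11, 3 rose and 7 fell (5 up and 4 down with library size alone), beside 47.5% up and 38% down among all tested genes. Csf2rb (1.34) and Spi1 (0.83) were higher, and Cd34 (-1.05) and Prtn3 (-0.75) were lower. Csf2rb shares exonic bases with Mir7676-2 and Cd34 with a predicted gene. Of 12 macrophage markers 9 had no count in any library, among them C1qa, Mrc1 and Cd163. The summed level of the list was between 0 and 1.196 CPM with GFP, and between 22.9 and 33.9 with Trim27, from Emr1 and Slc40a1. Of 12 hepatocyte markers 8, among them Alb and Ttr, had no count in any library, and the sum was between 1.196 and 1.70 CPM with GFP, and between 15.1 and 17.6 with Trim27, mostly Afp and Apoa1. The summed CPM of 10 B cell markers lay between 66.6 and 160.5 with GFP, and between 41.1 and 56.2 with Trim27. Of the 9 tested, 6 fell, led by Dntt, Igll1, Vpreb1 and Ebf1, and 3 fell without GFP replicate 1, the GFP library in which Alas2 and the sum of these markers were highest. The part of these cells in the members' values was not tested.

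Genes of at least 6 log2 CPM with the profile nearest to each synthase were found by the root mean square difference over the 8 libraries, after each profile was centred on its GFP mean. Among the 3 nearest to Alas2 were Lig1 (0.319 log2 units) and Pafah1b2 (0.327). For Alas1 they were Faim (0.058), Rab11b (0.058) and Cyb5a (0.060). This is a description of 8 libraries in 2 groups.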

How the data were processed

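The values are raw read counts, deposited by the authors as 1 table with a line for each gene symbol and a column for each of the 8 libraries. HISAT2, featureCounts, bcl2fastq and the build NCBIM37 are named, per the submitters' processing notes. The sources used here do not give versions, annotation, strand setting or the handling of multiply matching reads. One line with no gene name held 0 counts and was left out. Even numbers made up 64.7% to 72% of the small counts (1 to 10) of a library, so both reads of a pair may have been counted, and a fit on counts divided by 2 was run. Genes were filtered by filterByExpr (minimum count 10, minimum total count 15), scaled by TMM and tested with edgeR 4.0.16 in R 4.3.3 (quasi-likelihood, robust, 2-sided, no covariate) with Benjamini-Hochberg adjustment over 11040 genes. Standard errors come from the fold change and its F statistic. The fit was tested on simulated counts for these genes, in which 200 were changed: 91% of 1.5-fold and 97% of 2-fold changes were recovered. The simulation changed few genes, by matching folds up and down, whereas 85.5% of genes were called in the real libraries. The recovery rates therefore do not test the scaling of the real libraries. Precision is limited by 4 libraries per group.

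The members and lists were chosen with earlier results of these data known. Named genes are the members, Trim27, for each companion list up to 4 genes past the threshold, taken by smallest p, and the 3 nearest profiles of Alas2 and Alas1; Apex2, Slc25a37, Aco1 and Ireb2 were added after their values were seen. Some genes that this rule names are not reported here. Transcript lengths and overlaps came from GENCODE and promoters from RefSeq, both of GRCm38, not the authors' build; 99.6% of tested genes had a length. Alternatives were other scalings, filters, DESeq2 1.42.0, limma-voom (limma 3.58.1), a replicate block, length offsets, a 1.5-fold threshold and leaving out each library.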

Additional observations from a re-analysis of the deposited data

Results flagged for a closer look

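The 4 values of a group were checked for 1 that lies far from the other 3, for 10 genes in both groups. Chance flags about 1 in 20 such groups, and 1 of 20 was flagged. Fech was at 156.2 CPM in GFP replicate 2, below the 168.8 to 169.7 CPM of the other GFP libraries, and without that library its log2 fold change was 0.08 (adjusted p = 0.188 by edgeR's quasi-likelihood test).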

How the results depend on the processing

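Alas2, Alad, Uros, Urod and Cpox kept their direction and their call in all 20 alternatives. The sign turned for Ppox with library size only (0.04) and, with an offset for the length trend of each library, for Alas1 (-0.38) and Fech (-0.71). The rises went from 2 to 1 with the replicate block, with counts divided by 2, with the length offset and with a fold above 1.5, and to 1 in each fit without 1 library, always through the loss of Fech. With library size or upper-quartile scaling 3 rose. Of the companion genes 96 were called, in a fit that called 85.5% of all tested genes. With a fold above 1.5 it was 61, where 57.5% of all tested genes were called. The number of calls is not taken as a trait of these lists. The difference between the groups in the Alas2 to Alas1 log2 ratio (Trim27 minus GFP) was 1.78 to 2.18 when 1 library was left out. Same-numbered libraries did not deviate together (correlations across 2557 genes of -0.53, -0.37, 0.12 and 0.02), so the numbers were not taken as pairs. With the replicate block 6 of the 8 members were called in place of 7. The mean difference in this log2 ratio between same-numbered libraries was 2.01 (exact sign-flip test, p = 0.125, the smallest that 4 pairs allow). Counts of single companion lists moved by over 1.5 times mainly with a fold above 1.5, with library size only, with the length offsets and, for the small marker lists, with other filters.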
